A study of Mus musculus with 3 samples.

Results

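Genes of cholesterol synthesis, intracellular cholesterol transport and SREBP2 control were followed in the livers of mice given a Cre virus against Hnf4a or a control virus. The set held 27 named genes. A gene was counted where a probe set, the group of short probes that reads a transcript on the array, listed it as its only gene, and the probe set with the highest mean over the 3 arrays stood for it. That left 25 genes of the 18193 on the array, and Acat2 and Soat2 had no probe set of their own in the annotation used and were not analysed here. All 25 also passed the filter on dim genes, a mean of at least 3.77 on the log2 scale, which kept 12735 genes. The list holds no lipoprotein receptor, so uptake at the cell surface was looked at through a separate list.

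Cholesterol is built from acetyl-CoA in a long chain of enzymes, through mevalonate, isoprenoids, squalene and lanosterol, and the liver is a main site of this synthesis. The genes of the chain are switched on together by SREBP2, the product of Srebf2, a transcription factor held in the endoplasmic reticulum. When sterols are low, the escort protein Scap carries SREBP2 to the Golgi, where proteases release its active part. When sterols are high, the Insig proteins keep Scap and SREBP2 in place, and Insig1 is itself a target of SREBP2. Hnf4a encodes HNF4alpha, a nuclear receptor on which much of the hepatocyte's own transcription depends.

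The control group was 2 mice injected with MUP-EGFP-AAV8 and the Cre group was 1 mouse injected with MUP-iCre-AAV8, an adeno-associated virus that carries the iCre recombinase. All 3 mice were 3 months old, of mixed strain, and received 400 microL of virus once into the peritoneal cavity, and total liver RNA was taken 1 week later. The labels give the control livers as wild type and the Cre liver as HNF4alpha knockout, whereas the design text speaks of floxed mice under both viruses, so genotype and virus cannot be told apart here. The values are log2 expression made by RMA, a method that equalises the arrays. Differences are the Cre value minus the control mean, given with the standard error (SE) that limma moderates across genes. A gene is said to have risen or fallen only where limma's Benjamini-Hochberg adjusted p over all 12735 genes was under 0.05. The Cre value of every gene comes from 1 mouse, and the test assumes that Cre livers vary as the control livers do.

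The targeted gene was lower in the Cre liver on all 4 of its probe sets. The probe set that stood for Hnf4a read 11.91 in control 1, 11.96 in control 2 and 11.38 in the Cre liver, 1.47-fold below the control mean (limma adjusted p = 0.0401), and the widest difference among its probe sets was -1.18. Where the probes lie relative to the deleted part was not analysed here. Of the 7 fitted hepatocyte markers, Alb, Ttr, Apoa1 and Serpina1c lay between 14.33 and 14.75 on every array. Fgb (0.16) and Cps1 (0.33) lay above both controls without passing, and Ass1 fell (-0.80). The Y-linked gene Eif2s3y read between 7.70 and 8.07 on the arrays and Xist between 3.17 and 3.59. Array medians lay between 4.15 and 4.18.

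The Cre liver had less transcript than both control livers for most of the cholesterol genes. It lay below both controls in 17 of 25 (68.0%), against 33.6% of all fitted genes, between the controls in 4 (background 16.6%) and above both in 4 (background 49.7%). In 8 of 25 genes, 32.0%, it lay at least 2-fold below both controls, against 3.72% of all genes, and in 0 of 25 at least 2-fold above both (background 3.67%). Those 8 were Pmvk, Idi1, Fdps, Msmo1, Nsdhl, Hsd17b7, Sc5d and Insig1. The median difference was -0.997 over the members and 0.09 over all fitted genes. Against control 1 alone the Cre liver was at least 2-fold lower in 8 members (background 4.31%), with a median of -0.75, and against control 2 alone in 17 (background 4.56%), with a median of -1.53.

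By the test, 4 of the 25 genes fell (Nsdhl, Ebp, Sc5d and Insig1; background 5.21%) and 1 rose (Npc1; background 6.71%). The median SE of the members, 0.32, was larger than the 0.17 of all fitted genes, because the controls themselves lay further apart in these genes. The number that fell depended on the setting: it was 14 after quantile normalization, 8 after median centring and 7 when the probe sets of a gene were averaged, but 2 without an intensity trend in the moderation and 1 without the filter or without probe sets that can read several transcripts. Sc5d and Npc1 passed in all 9 other settings with a fit, Insig1 in 7 and Nsdhl and Ebp in 6.

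The control livers did not match each other in these genes. Control 2 was at least 2-fold above control 1 in 9 of 25 members, 36.0%, against 0.424% of all genes (0.644% in either direction), and at least 1.5-fold above it in 15 (background 2.32%). The other 16 members lay less than 2-fold apart. These 9 genes (Hmgcs1, Mvd, Idi1, Fdps, Fdft1, Sqle, Cyp51, Msmo1 and Hsd17b7) made up 16.7% of the 54 genes that stood that far apart in this direction. Counting every gene above 0, control 2 was the higher control in 20 of 25 members (background 52.5%), including all 18 enzymes. The median gap between the controls was 0.70 over the members and 0.01 over all fitted genes. With 1 array on each side this gap has no test.

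**Figure D1:**
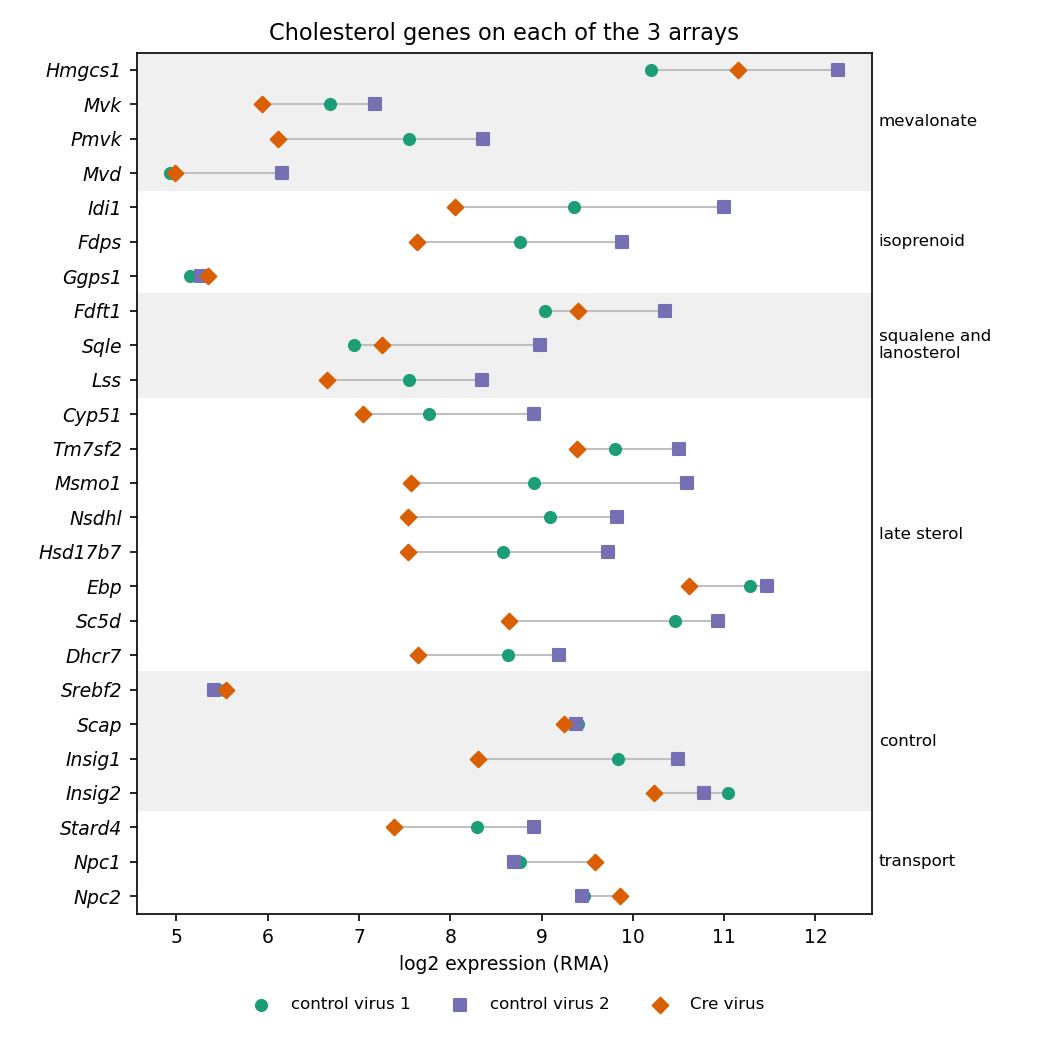
Log2 expression (horizontal axis) of the 25 cholesterol genes, grouped by role, in control liver 1 (circles), control liver 2 (squares) and the Cre liver (diamonds), with a line over each gene's range. Control 2 is the highest array for every enzyme but Ggps1, and the Cre liver lies below both controls in 17 genes and between them in Hmgcs1, Mvd, Fdft1 and Sqle.

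The promoters of these genes share short motifs that recur in SREBP2-controlled genes. A promoter here is the window from 250 bases before to 50 after a gene's start in RefSeq (GRCm38.p6), and 20 of the 25 genes matched one. Printed here are Idi1, Msmo1, Nsdhl, Sc5d and Insig1, which had the 5 most negative differences of the 25 genes, and Hmgcs1, which lay between the controls, so that the letters can be set beside the values. Capitals mark the CCAAT box (CCAAT, bound by NF-Y), the GC box (GGGCGG, bound by Sp1) and a single spelling of the sterol response element (TCACNCCAC, bound by SREBP), each on either strand.
Idi1 promoter, chr13:8885356-8885655, plus strand: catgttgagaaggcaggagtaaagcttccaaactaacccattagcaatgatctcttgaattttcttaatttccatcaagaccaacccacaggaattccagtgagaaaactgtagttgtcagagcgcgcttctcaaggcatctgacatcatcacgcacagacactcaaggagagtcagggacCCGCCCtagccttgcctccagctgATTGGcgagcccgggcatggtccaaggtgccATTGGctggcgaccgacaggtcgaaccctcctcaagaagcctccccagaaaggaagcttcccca
Msmo1 promoter, chr8:64733529-64733828, minus strand: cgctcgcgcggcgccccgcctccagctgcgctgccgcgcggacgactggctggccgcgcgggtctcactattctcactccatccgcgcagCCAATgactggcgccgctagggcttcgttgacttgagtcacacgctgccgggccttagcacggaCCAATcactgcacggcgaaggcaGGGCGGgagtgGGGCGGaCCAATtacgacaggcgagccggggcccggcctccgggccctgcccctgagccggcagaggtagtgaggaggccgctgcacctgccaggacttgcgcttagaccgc
Nsdhl promoter, chrX:72918271-72918570, plus strand: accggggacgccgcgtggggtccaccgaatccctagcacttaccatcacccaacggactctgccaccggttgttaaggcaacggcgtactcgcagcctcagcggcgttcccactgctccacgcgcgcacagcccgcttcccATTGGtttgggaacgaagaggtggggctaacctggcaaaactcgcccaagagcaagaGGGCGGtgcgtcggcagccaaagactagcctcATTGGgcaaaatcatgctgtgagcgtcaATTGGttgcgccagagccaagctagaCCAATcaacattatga
Sc5d promoter, chr9:42264251-42264550, minus strand: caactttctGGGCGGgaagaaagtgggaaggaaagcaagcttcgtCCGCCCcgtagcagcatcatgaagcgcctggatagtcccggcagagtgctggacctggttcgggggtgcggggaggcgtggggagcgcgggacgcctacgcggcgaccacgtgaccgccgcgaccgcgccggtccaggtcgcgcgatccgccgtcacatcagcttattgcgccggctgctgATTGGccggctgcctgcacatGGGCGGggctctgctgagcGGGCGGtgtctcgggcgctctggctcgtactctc
Insig1 promoter, chr5:28071162-28071461, plus strand: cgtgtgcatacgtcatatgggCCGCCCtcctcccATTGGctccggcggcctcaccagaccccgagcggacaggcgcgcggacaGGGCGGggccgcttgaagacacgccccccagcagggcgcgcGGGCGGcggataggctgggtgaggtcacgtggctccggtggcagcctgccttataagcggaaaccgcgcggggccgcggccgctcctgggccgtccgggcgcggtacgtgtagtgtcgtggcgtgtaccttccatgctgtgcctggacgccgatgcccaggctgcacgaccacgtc
Hmgcs1 promoter, chr13:119690101-119690400, plus strand: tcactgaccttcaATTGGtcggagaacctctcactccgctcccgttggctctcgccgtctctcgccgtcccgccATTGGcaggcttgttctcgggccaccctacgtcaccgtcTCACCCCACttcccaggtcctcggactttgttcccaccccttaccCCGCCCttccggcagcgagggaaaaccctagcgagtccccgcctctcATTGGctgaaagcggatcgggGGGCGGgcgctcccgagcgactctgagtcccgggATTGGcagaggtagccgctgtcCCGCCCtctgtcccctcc

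The CCAAT box was in a window of 19 of 20 genes, all but Scap, against 42.2% of the 10239 fitted genes in the table. The GC box was in 18 of 20, all but Pmvk and Ggps1, against 65.4%. Both together were in 16 of 20 against 25.6%. Some genes have several starts, and counted by window the CCAAT box was in 19 of 26 against 37.4% of all 32851 windows. TCACNCCAC was found in Hmgcs1 alone, and 1.45% of fitted genes hold it. Sterol response elements spelled otherwise were not searched for, so the other genes may hold one. CAAAGTCCA, a motif bound by HNF4, was found in none of the 20 and in 0.62% of fitted genes. These are matches of letters within 300 bases, and each printed window holds a CCAAT box and a GC box. A link between the boxes and the Cre differences was not tested.

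The mevalonate enzymes split. Hmgcs1, the cytosolic synthase that commits acetyl groups to the pathway, was at 10.19 in control 1, 12.25 in control 2 and 11.15 in the Cre liver. Its control values were 4.15-fold apart, and the Cre value sat between them, 1.94-fold above control 1 and 2.15-fold below control 2. The difference from the control mean was -0.07 ± 0.88 SE (adjusted p = 0.963). Mvk, mevalonate kinase, was at 6.69, 7.17 and 5.93, below both controls without passing (-0.997 ± 0.25 SE, adjusted p = 0.0825).

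Pmvk, which adds the next phosphate, stood furthest from the controls among the mevalonate enzymes. It was at 7.55 in control 1, 8.36 in control 2 and 6.11 in the Cre liver, 2.70-fold below the lower control and 4.75-fold below the higher (-1.84 ± 0.37 SE, adjusted p = 0.0539). Mvd, the decarboxylase that makes isopentenyl diphosphate, was at 4.93, 6.15 and 4.98, so the Cre liver and control 1 differed by 0.05 and only control 2 stood apart. That reading depends on the probe set. Another Mvd probe set of nearly the same mean read 5.50, 5.42 and 5.12, with no such gap between the controls.

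At the isoprenoid step both main enzymes were low in the Cre liver. Idi1, which interconverts the isopentenyl building blocks, was at 9.36 in control 1, 11.00 in control 2 and 8.05 in the Cre liver. The Cre value was 2.48-fold below control 1 and 7.74-fold below control 2. Because the controls were 3.12-fold apart, the difference of -2.13 ± 0.70 SE did not pass (adjusted p = 0.134). Fdps, farnesyl diphosphate synthase, read 8.76, 9.88 and 7.64 and likewise lay below both without passing (-1.69 ± 0.49 SE, adjusted p = 0.107). Ggps1, which turns farnesyl diphosphate toward protein prenylation and away from sterols, was at 5.15, 5.27 and 5.34, and the arrays lay within 0.19 of each other.

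On the way from farnesyl diphosphate to lanosterol, Fdft1 and Sqle did not stand apart from the controls, while Lss lay below both. Fdft1, squalene synthase, was at 9.04 in control 1, 10.35 in control 2 and 9.40 in the Cre liver. Sqle, squalene epoxidase, a rate-limiting step of the later pathway, was at 6.94, 8.98 and 7.25. In both genes the Cre value fell between the controls, near control 1. The differences from the control mean were -0.30 ± 0.57 SE for Fdft1 (adjusted p = 0.756) and -0.71 ± 0.87 SE for Sqle (adjusted p = 0.623). Lss, which closes the ring to lanosterol, read 7.54, 8.34 and 6.65, below both controls (-1.29 ± 0.37 SE, adjusted p = 0.102).

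All 8 enzymes that convert lanosterol to cholesterol were below both controls in the Cre liver, with a median of -1.45. Of the 5 genes that passed the test, 3 belong to this stretch. Sc5d, lathosterol oxidase, was at 10.46 in control 1, 10.93 in control 2 and 8.64 in the Cre liver, 4.17-fold below the control mean (-2.06 ± 0.23 SE, adjusted p = 0.0164). The Cre value lay 3.53-fold below even the lower control. Nsdhl, a dehydrogenase that takes methyl groups off the sterol ring, was at 9.10, 9.82 and 7.54 (-1.92 ± 0.33 SE, adjusted p = 0.0396). Ebp, a sterol isomerase, was at 11.28, 11.47 and 10.61, a fall of 1.70-fold in a gene whose controls lay 0.18 apart (-0.76 ± 0.13 SE, adjusted p = 0.0363).

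Msmo1 and Hsd17b7 work with Nsdhl on the same demethylation. Msmo1, methylsterol monooxygenase, was at 8.92 in control 1, 10.59 in control 2 and 7.57 in the Cre liver. It had the most negative difference of the 25 genes, 2.54-fold below control 1 and 8.13-fold below control 2, and did not pass with controls 3.20-fold apart (-2.19 ± 0.72 SE, adjusted p = 0.133). Hsd17b7, the ketoreductase, was at 8.57, 9.73 and 7.54 (-1.61 ± 0.50 SE, adjusted p = 0.122). Msmo1, Nsdhl and Hsd17b7 were thus all at least 2-fold below each control. Cyp51, which removes the first methyl group from lanosterol, was at 7.77, 8.92 and 7.05 (-1.30 ± 0.50 SE, adjusted p = 0.177). The reductases Dhcr7, which completes cholesterol, and Tm7sf2 were at -1.27 ± 0.27 SE (adjusted p = 0.0598) and -0.77 ± 0.32 SE (adjusted p = 0.195), both below each control.

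**Figure D2:**
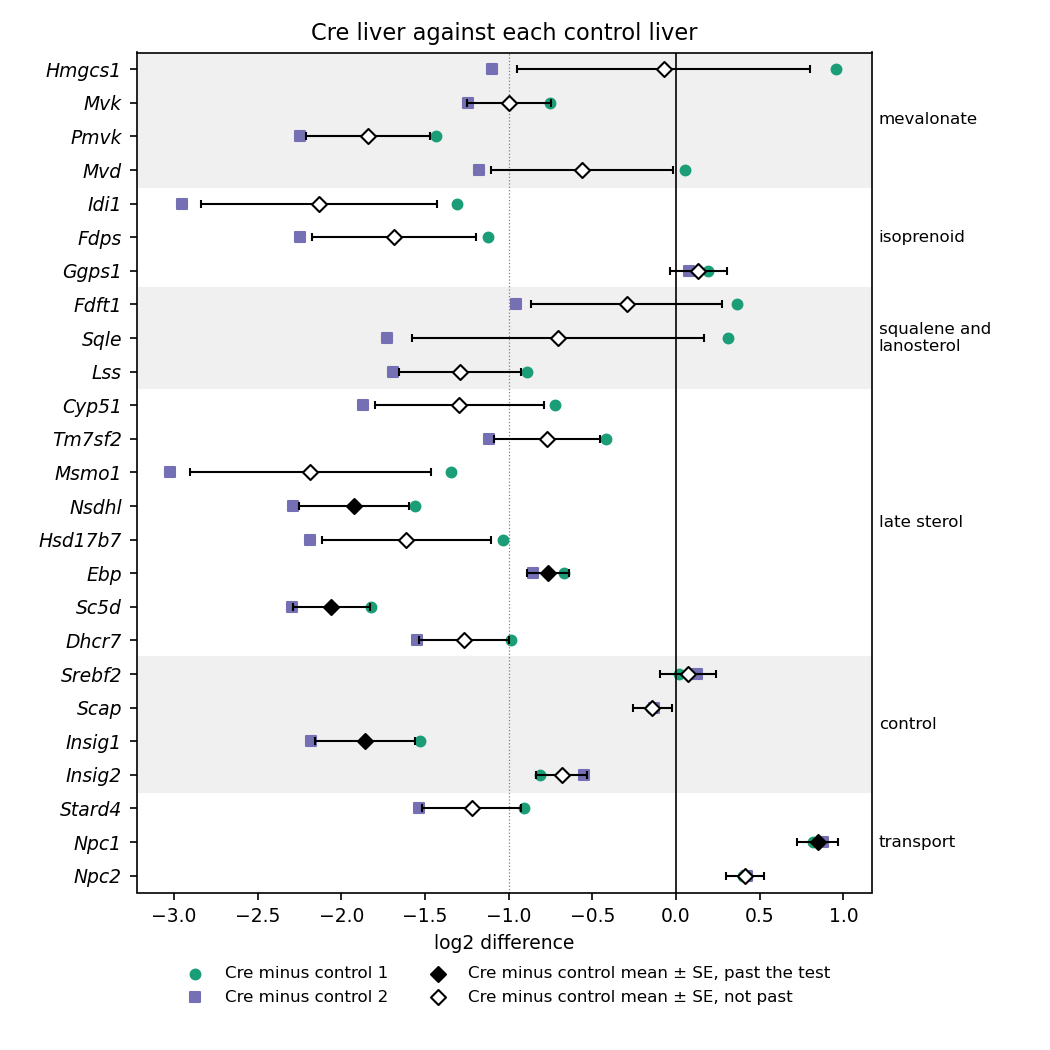
Log2 difference (horizontal axis) of the Cre liver from control 1 (circles), control 2 (squares) and the control mean (diamonds, with limma's SE as bars), filled where the gene passed the test. The dotted line marks -1; Sc5d, Nsdhl, Insig1 and Ebp passed as lower and Npc1 as higher, and wide bars belong to genes whose controls differ, such as Hmgcs1 and Sqle.

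Of the SREBP2 machinery, both Insig genes lay below the controls, Scap differed little between the arrays, and the 2 Srebf2 probe sets read differently. Insig1 was at 9.84 in control 1, 10.49 in control 2 and 8.31 in the Cre liver, and fell 3.62-fold (-1.86 ± 0.30 SE, adjusted p = 0.0344), and stood 2.89-fold below the lower control. Insig2, the partner that SREBP2 does not induce, was at 11.04, 10.78 and 10.23, below both without passing (-0.68 ± 0.15 SE, adjusted p = 0.0656). On this probe set control 1 was the higher control, by 0.26, and on the other 2 control 2 was, by 0.08 and 0.43. The Cre value was the lowest of the arrays on all 3 Insig2 probe sets.

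Srebf2 itself was at 5.52 in control 1, 5.42 in control 2 and 5.54 in the Cre liver, so the arrays lay within 0.12 of each other (0.07 ± 0.16 SE, adjusted p = 0.795; -0.04 after quantile normalization). A second Srebf2 probe set of nearly the same mean read 5.05, 5.89 and 5.29, with control 2 high and the Cre liver between the controls. Scap was at 9.40, 9.38 and 9.25 (-0.14 ± 0.12 SE, adjusted p = 0.459; 0.04 with the mean of its probe sets). These arrays measure RNA, and cleavage of the SREBP2 protein was not measured.

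Cholesterol carriers inside the cell went both ways. Npc1, the lysosomal membrane protein that passes cholesterol out of lysosomes, was at 8.76 in control 1, 8.70 in control 2 and 9.58 in the Cre liver, and it rose 1.80-fold (0.85 ± 0.12 SE, adjusted p = 0.0275). Its controls differed by 0.06. Npc2, the soluble lysosomal protein that hands cholesterol to Npc1, read 9.46, 9.44 and 9.86, also above both controls (0.41 ± 0.11 SE, adjusted p = 0.096). Stard4, a sterol carrier between membranes that SREBP2 induces, read 8.29, 8.91 and 7.38, below both (-1.22 ± 0.29 SE, adjusted p = 0.0755). Of these 3 carriers, Stard4 alone had a gap between the controls, 0.63, and Npc2 differed by 0.02.

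**Figure D3:**
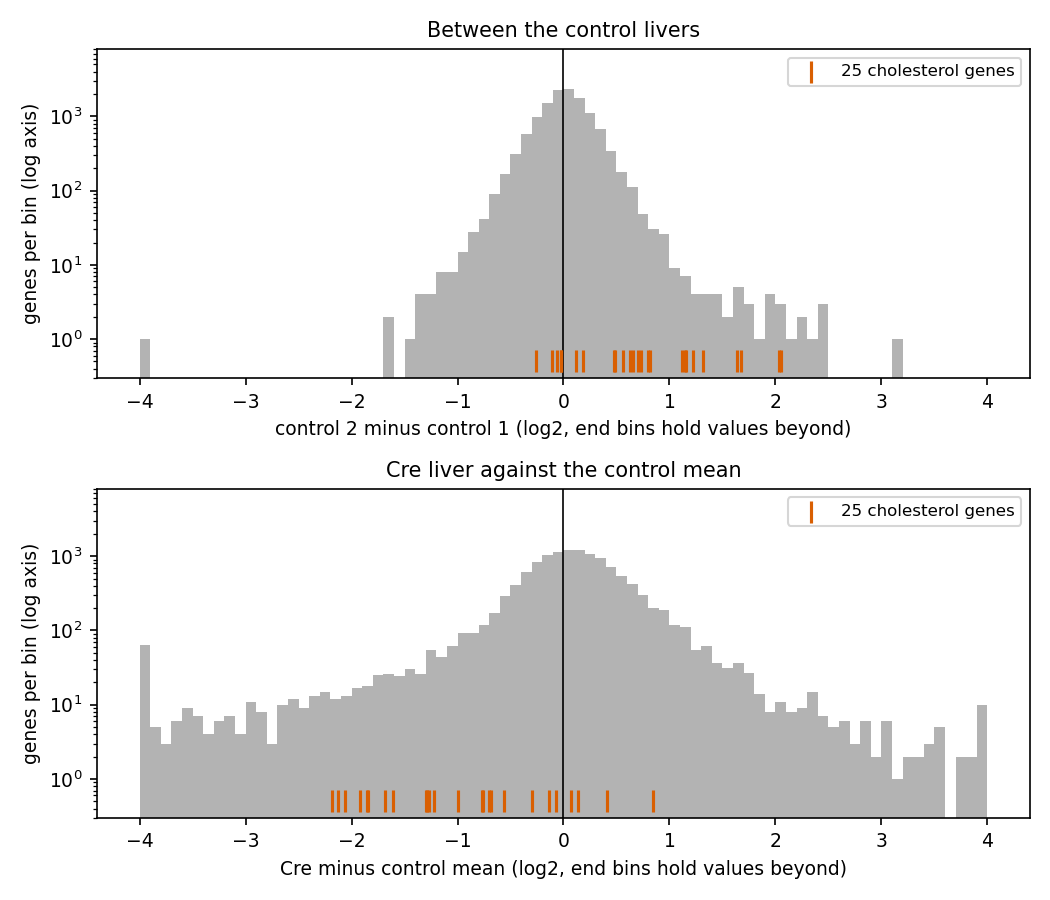
Number of genes (vertical axis, log scale) by log2 difference between the controls (upper panel) and between the Cre liver and the control mean (lower panel) for all 12735 fitted genes, with the 25 cholesterol genes as ticks. In the upper panel 9 ticks lie at 1 or above, where 0.424% of all genes lie; in the lower panel the member median is -0.997 and that of all genes 0.09.

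The 25 genes had 58 probe sets, 52 of them at or above the filter value, and 14 genes had several such sets. In 12 of these 14 the sets shared the sign of the Cre difference, the exceptions being Ggps1 and Srebf2. The other 11 genes had 1 such set, so theirs could not be compared. A dim Sc5d set read 3.93, 4.50 and 3.92, with the Cre liver level with control 1. The gap between the controls was less stable, with both signs among the sets of 7 genes (Fdft1, Ggps1, Insig2, Lss, Mvd, Npc2 and Srebf2). For Hmgcs1, 4 bright probe sets put control 2 above control 1 by 1.65 to 2.05. Averaging in dim probe sets shrank Fdps to -0.77 and Msmo1 to -1.15, and Lss was at -0.84 without sets that can read several transcripts.

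**Figure D4:**
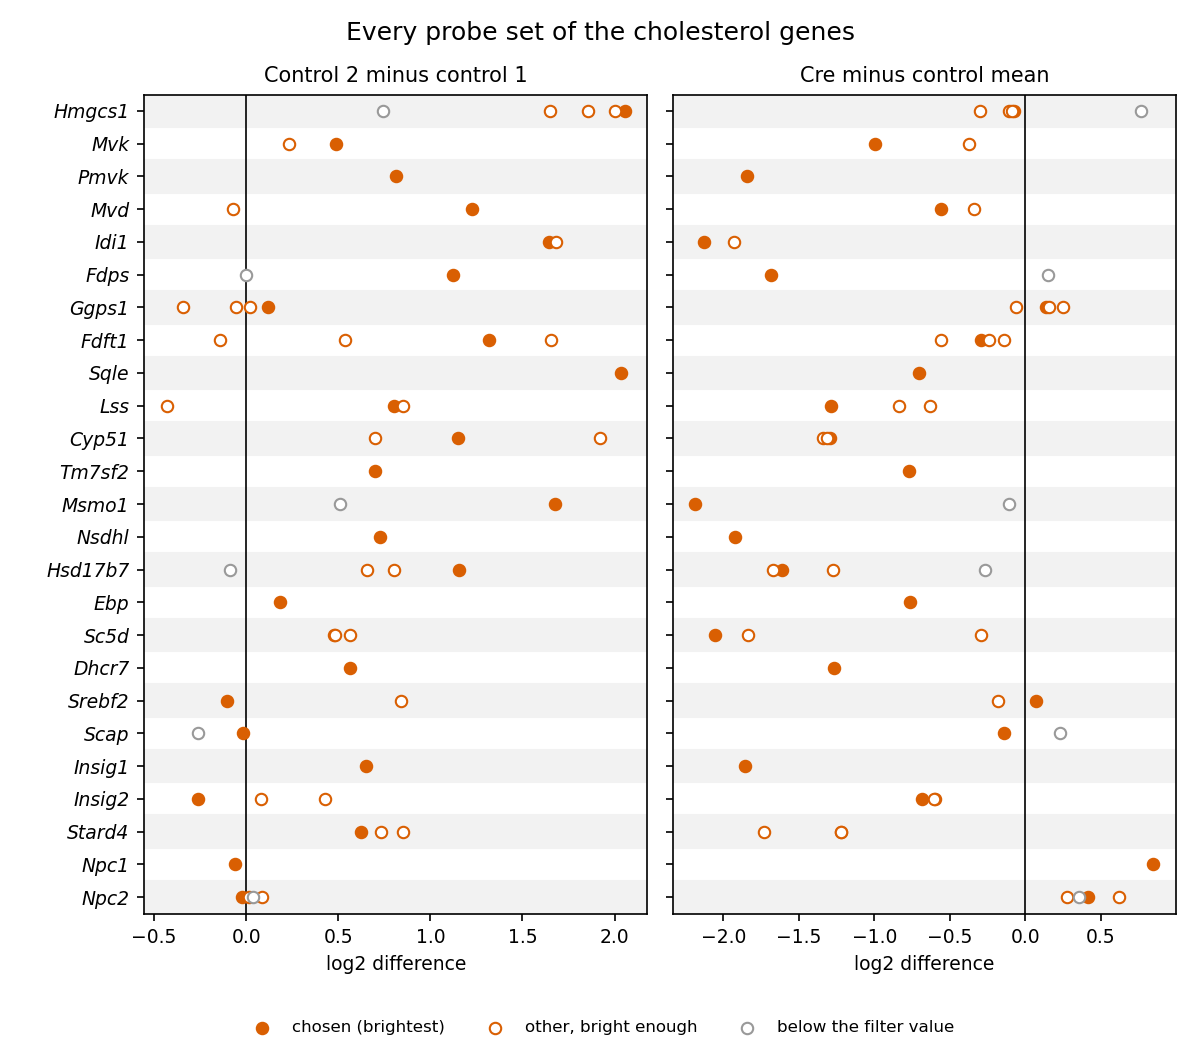
Log2 difference between the controls (left) and between the Cre liver and the control mean (right) for each of the 58 probe sets of the 25 genes; filled circles are the sets that stood for a gene, open circles other sets and grey circles sets below the filter value of 3.77. For Hmgcs1, Idi1, Cyp51 and Stard4 the bright sets lie on 1 side of 0 in both panels.

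Genes around the pathway were taken from lists of related function. Of 11 genes of SREBP2 processing and sterol sensing, 1 fell and 1 rose (median 0.18), where 5.21% of all fitted genes fell and 6.71% rose. Tmem97, a sterol-responsive membrane protein that binds Npc1, was at 8.86, 9.16 and 6.63 and fell (-2.39 ± 0.18 SE, adjusted p = 0.00712). Mbtps2, the protease that makes the final cut of SREBP2, was at 6.81, 6.83 and 7.70 and rose (0.89 ± 0.14 SE, adjusted p = 0.0332). Mbtps1, the protease that cuts first (0.42), and the ubiquitin ligase gene Rnf145 (0.68) did not pass. Of 9 isoprenoid branch genes, which use the pathway for prenyl groups and ubiquinone, 0 passed in limma (1 at an unadjusted p under 0.05), with a median of 0.29 and Nus1 (0.51), Fntb (0.42), Rabggtb (0.32) and Coq2 (0.31) furthest from the controls.

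Intracellular sterol transport and ester genes changed in both directions, with 3 of 13 lower (background 5.21%) and 2 higher (background 6.71%; median -0.11). Stard5, a sterol-binding relative of Stard4, was at 9.04, 9.10 and 5.45 (-3.61 ± 0.13 SE, adjusted p = 0.00142), a larger fall than any of the 25 cholesterol genes. Osbpl8 (-0.82) and Osbpl9 (-0.67), of the oxysterol-binding family, fell too. Gramd1a, which carries cholesterol from the plasma membrane to the endoplasmic reticulum, was at 5.40, 5.03 and 6.74 and rose (1.53 ± 0.22 SE, adjusted p = 0.0278). Its relative Gramd1b rose by 1.33 from control values of 3.39 and 3.29, below the filter value, so it entered the test through its Cre value. Nceh1, which splits cholesterol esters, was at 6.42, 7.30 and 8.18 and did not pass (1.32 ± 0.40 SE, adjusted p = 0.113).

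Of 8 lipoprotein and cholesterol uptake genes, 1 rose (background 6.71%), with a median of 0.48, and 7 lay above both controls (background 49.7%). Sort1, a sorting receptor of lipoproteins, was at 7.59, 7.32 and 8.61 (1.16 ± 0.17 SE, adjusted p = 0.0292). Vldlr, the very low density lipoprotein receptor, was at 3.96, 5.61 and 7.36, and with controls that far apart its 2.57 ± 0.72 SE did not pass (adjusted p = 0.099). Lrp1 (0.54) and Lrpap1 (0.53) did not pass either.

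SREBP1, the close relative of SREBP2, controls fatty acid synthesis. The list of SREBP1 targets used here also held Srebf1 itself, Mmab and Aacs, which are not enzymes of fatty acid synthesis. Of 15 SREBP1 fatty acid targets 3 fell (background 5.21%; median -0.48): Scd1 (-2.06 ± 0.10 SE), Acss2, which makes acetyl-CoA from acetate (-1.80 ± 0.29 SE, adjusted p = 0.0336), and Elovl5 (-1.15 ± 0.15 SE). Acss2 was at 9.79, 10.41 and 8.30, the same order of arrays as Idi1 or Msmo1. Fads2 was at -1.18 and did not pass. Aacs, an acetoacetyl-CoA synthetase chosen here after its values were seen, was at 5.20, 6.81 and 6.34, the order of Hmgcs1. Of 8 genes for the sterol sensor LXR and its targets 1 rose (background 6.71%), Abcg1 (1.16 ± 0.19 SE, adjusted p = 0.0346; list median -0.38). Of the other LXR targets, 3 ran against the enzymes between the controls: Srebf1 was at 9.99, 8.95 and 8.99, Abcg5 at 10.27, 9.16 and 8.68, and Abcg8 at 8.36, 7.57 and 7.22, each highest in control 1. In Lpcat3 control 2 was the higher, by 0.31, and control 2 minus control 1 was -0.14 in Abca1 and -0.03 in Mylip.

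**Figure D5:**
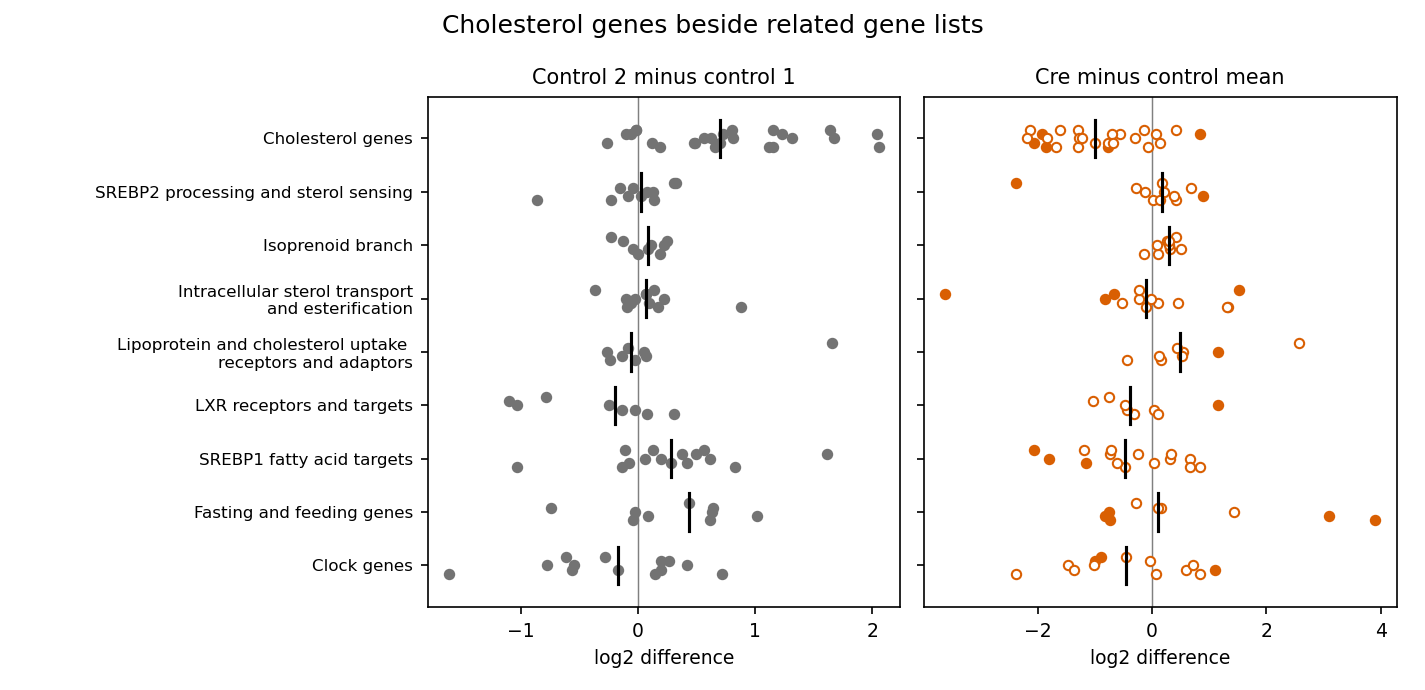
Log2 difference between the controls (left) and between the Cre liver and the control mean (right) for the 25 cholesterol genes and 8 related lists, 1 point per fitted gene; black bars are list medians, and filled points on the right passed the test. The cholesterol genes have a median of 0.70 on the left and -0.997 on the right.

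Genes that follow feeding and time of day were read on the same arrays. Of 13 clock genes 2 fell (background 5.21%) and 1 rose (background 6.71%), with a median of -0.46. The clock output gene Dbp was at 8.82 in control 1, 7.21 in control 2 and 5.63 in the Cre liver, and control 2 minus control 1 was -1.61. Tef (8.79, 8.23 and 7.16) and Cry2 (6.71, 5.93 and 4.85) had the same order of arrays. Per1 (-0.99) and Nr1d2 (-0.90) fell and Cry1 (1.11) rose. Of 9 fasting and feeding genes 3 fell (background 5.21%), Pck1 (-0.73), G6pc (-0.82) and Igfbp1 (-0.75), and 2 rose (background 6.71%), Pdk4 (3.90) and Cyp4a14 (3.10), while Fgf21 (1.44) did not pass. Cyp4a14 was at 7.57, 8.58 and 11.17 and Pdk4 at 5.42, 6.03 and 9.63, each higher in control 2 than in control 1. Ppargc1a ran the other way between the controls, at 7.67 in control 1 and 6.92 in control 2. Control 2 minus control 1 was 0.63 in Fgf21, -0.05 in Pck1, 0.09 in G6pc and -0.03 in Igfbp1, with a list median of 0.44. The part of feeding state and clock phase in the cholesterol result was not tested.

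Among markers of other cells, 1 of 8 Kupffer cell and macrophage genes rose (background 6.71%), Marco (1.88), and 7 lay above both controls (background 49.7%), with a summed level (log2 of the summed linear values) of 9.84, 10.45 and 10.80. Of the cholangiocyte markers 1 of 3 fitted rose, Sox9 (2.35), and the sums were 6.12, 6.43 and 7.37. Sox9 alone was at 3.87, 4.82 and 6.69. The other fitted markers, Epcam (0.28) and Cldn4 (0.23), also lay above both controls, without passing. Krt19 (3.72, 3.79 and 3.59) and Krt7 (3.34, 3.13 and 3.26) were too dim on average to be fitted. The Cre value of Krt19 was below both controls, and that of Krt7 was between them. Of the fitted stellate, endothelial, lymphocyte and neutrophil markers, 0 of 8, 0 of 8, 0 of 4 and 0 of 2 passed in limma (1, 2, 0 and 0 at an unadjusted p under 0.05). In the same order, 6, 7, 1 and 1 of them lay above both controls (background 49.7%). The sums were 11.16, 11.26 and 11.53 for stellate cell, 10.31, 10.45 and 10.48 for endothelial, 6.88, 6.87 and 6.77 for lymphocyte and 6.05, 5.85 and 5.86 for neutrophil markers. The 7 hepatocyte markers, of which Ass1 fell (-0.80), summed to 16.96, 16.98 and 17.02. In whole liver, fewer cells of a type and less RNA per cell cannot be told apart, and the part of other cells in the cholesterol result was not tested.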

How the data were processed

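Liver RNA of 3 mice was labelled with biotin by in vitro transcription and read on 1 array per mouse. The authors deposited RMA values of log2 expression for each probe set, and the submitters' processing notes name Partek 6.5. The log base is not stated in the sources used here, and base 2 was inferred because the highest value is 15.048. RMA equalises the arrays and compresses differences near background. The number of arrays limits the precision.

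Of 45101 probe sets, 34945 listed 1 gene. Symbols were updated by Entrez ID. Genes whose mean reached the 30th percentile were fitted with limma 3.58.1 in R 4.3.3 (lmFit, eBayes with trend), with 1 residual and 3.18 prior degrees of freedom. The fit was checked on simulated data in which a gene had the same spread on every array. That check cannot show whether Cre livers vary as control livers do. Counts without a test used a difference of 1 log2 unit (2-fold). Genes named from the lists of related function are the 4 of each list furthest from the controls and those past the test. Aacs, Lpcat3, Abca1, Mylip and Ppargc1a were added after their values were seen. The cell type markers and sex-linked genes named did not all follow this rule. Other settings changed the moderation, filter, scaling, probe set choice, threshold or controls used. Promoters are from RefSeq and figures from matplotlib 3.10.9. The members, lists and tests were chosen with earlier results of these data known.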

Additional observations from a re-analysis of the deposited data

How the results depend on the processing

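The number of members that fell was 4, and 2 without the intensity trend, 1 without the filter, 8 after median centring, 14 after quantile normalization, 7 with probe sets averaged, 1 without probe sets that can read several transcripts (23 members fitted) and 9 at an adjusted p threshold of 0.1, where 2 rose in place of 1. The number at least 2-fold below both controls was 8, and was 14 at 1.5-fold. With a control left out only the remaining control could be compared, and 17 members were at least 2-fold below control 2 and 8 below control 1. The number at least 2-fold apart between the controls was 9, and was 5 with the mean of probe sets and 15 at 1.5-fold. The median Cre difference ran from -1.53 to -0.75 with either control left out. With the mean of probe sets Hmgcs1 turned to 0.0404, Srebf2 to -0.0546 and Scap to 0.0441, and Srebf2 was at -0.0411 after quantile normalization. With either control left out, Hmgcs1 ran from -1.10 to 0.95, Mvd from -1.17 to 0.0513, Fdft1 from -0.95 to 0.36 and Sqle from -1.73 to 0.31. Of 223 single-gene values in the 9 settings with a fit, 192 kept their direction and side of the threshold, 19 newly passed and 8 no longer passed. Leaving out a control leaves no residual degrees of freedom, so those values have no test. The cause of these changes was not tested. No paired analysis was possible because the groups share fewer than 2 replicate numbers.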
